A study of Bos taurus with 9 samples.

Results

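The 60 genes described here are the members of the ADAM, ADAMTS, MMP and TIMP families in the deposited table of bovine day 8 blastocysts. Membership went by symbol alone, as every gene whose symbol is a family name followed by a number. The families themselves were chosen with earlier results of these data known. Members made up 60 of 22127 genes: 18 ADAM, 19 ADAMTS, 20 MMP and 3 TIMP genes. RNA sequencing covered 9 libraries, 3 for each of 3 media in which cumulus-oocyte complexes had been matured for 24 h. Glucose stood at 2.75 mM in the low glucose medium, at 2.75 mM beside 1.8 mM BHB in the second, and at 5.5 mM in the control medium. The labels do not spell BHB out, and the usual reading is beta-hydroxybutyrate, a ketone body. All 3 media were TCM 199 with serum, pyruvate, gentamicin, FSH and estradiol, and fertilisation and later culture were the same for all groups, so the media differed only before fertilisation. Pools of 9 to 11 embryos gave 1 library each. Separate cultures behind the pools are not stated. The p-values therefore set differences between media against the spread of these pools within a medium. That spread may be technical and may leave out variation between cultures. The question is whether the maturation medium of the oocyte left a mark on these transcripts in the blastocyst.

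These families make and restrain the enzymes that cut proteins outside the cell. ADAM proteins are membrane-anchored, and those with a working zinc site release growth factors, cytokines and receptors from the cell surface. ADAMTS enzymes are secreted, bind the matrix through thrombospondin repeats, and cut proteoglycans, procollagens and fibrillin partners. Matrix metalloproteinases (MMPs) cut collagens and other matrix proteins and are made as inactive precursors, and TIMPs block MMPs and some ADAM and ADAMTS enzymes by sitting in the active site. In mammals, trophoblast cells use this balance when the embryo attaches to the uterus.

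The libraries held 55611205 to 75178898 estimated counts, and the 60 members took 0.0817% to 0.116% of them. Levels are given as CPM, counts relative to the library total, scaled by TMM factors, which adjust for library composition. CPM is not divided by transcript length, so levels are compared between libraries and not between genes. Markers of the blastocyst lineages were present: all 9 trophectoderm and all 5 epiblast markers in the table, and 6 of 7 hypoblast markers, had counts in every library. Of 7 leukocyte markers 5 had counts in every library, with a summed level of 8.92 to 17.7 CPM over all media, and PTPRC had 24 counts over all libraries. Of 5 endothelial markers 4 had counts in every library, among them PECAM1 with 34158 counts in all, and their summed level was 98.8 to 132 CPM, while CDH5 had no counts. Cumulus and granulosa genes were present too, with 12284 counts of CYP19A1 and 2452 of FSHR over all libraries. Fold changes are from edgeR's quasi-likelihood fit of all tested genes, and a gene was called when its p, adjusted over those genes, was under 0.05.

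Of the 60 members, 48 had enough counts to be tested: 13 ADAM, 17 ADAMTS, 15 MMP and all 3 TIMP genes. The filter admits a gene that is high in a single medium, so counts over the tested members are descriptions and not evidence about the families. In low glucose blastocysts ADAM12, ADAM15, MMP2 and TIMP3 were called lower than in controls, 4 of 48, beside 2.02% of all tested genes, and no member was called higher, beside 0.00607%. With BHB in the low glucose medium, ADAM12 and TIMP3 were called lower than in controls, 2 of 48, beside 1.38% of all tested genes, and again no member was called higher, beside 0.00607%. Between the low glucose media no member was called in either direction, beside 0% of all tested genes. The low glucose media share the same 3 control libraries, so the comparisons with control are not independent of each other. Single libraries decide part of these counts: no member was called in low glucose without control replicate 3 or without low glucose replicate 3, and 1 was called without control replicate 1 or low glucose replicate 2. With BHB 1 member was called without control replicate 3 or BHB replicate 3. In pools of whole embryos, fewer cells of a type and less RNA per cell cannot be told apart.

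ADAM12, which encodes a protease that cuts insulin-like growth factor binding proteins and growth factor precursors and occurs in human trophoblast, was called in both low glucose media. It was measured at 0.886, 0.338 and 0.322 CPM in the 3 low glucose libraries, at 0.246, 0.310 and 0.255 CPM in the 3 libraries with BHB, and at 3.24, 2.59 and 3.18 CPM in the 3 control libraries. Every library of the low glucose media lay below every control library, and all 3 libraries with BHB lay below the 3 from low glucose alone. The transcript was 5.81-fold lower in low glucose than in control (log2 fold change -2.54, SE 0.486, edgeR adjusted p = 0.0162) and 11.0-fold lower with BHB than in control (-3.46, SE 0.511, edgeR adjusted p = 0.00588). The difference between BHB and low glucose alone was -0.92 (95% interval -1.99 to 0.14) and did not pass. The call with BHB held in all 9 fits that each left out a library, while the call in low glucose was lost without control replicate 1 or 3 or low glucose replicate 2 or 3. Over the 9 fits its log2 fold change in low glucose stayed between -3.16 and -2.29.

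ADAM15, a membrane protease named metargidin that binds integrins in human cells, was the other ADAM gene called. It had 0.596, 1.46 and 0.865 CPM in low glucose, 1.76, 1.31 and 1.04 CPM with BHB, and 4.39, 4.00 and 4.27 CPM in control. The control libraries were close together, and both low glucose media lay under them without overlap. ADAM15 was 4.31-fold lower in low glucose (log2 fold change -2.11, SE 0.388, edgeR adjusted p = 0.0125). With BHB it stood at -1.62 (SE 0.381, edgeR adjusted p = 0.0673), which did not pass, though DESeq2, limma-voom and the edgeR fit of the 6 libraries compared each called it lower. The difference between BHB and low glucose was 0.49 (95% interval -0.34 to 1.31). The call in low glucose was lost without control replicate 3, low glucose replicate 1 or low glucose replicate 3.

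**Figure D1:**
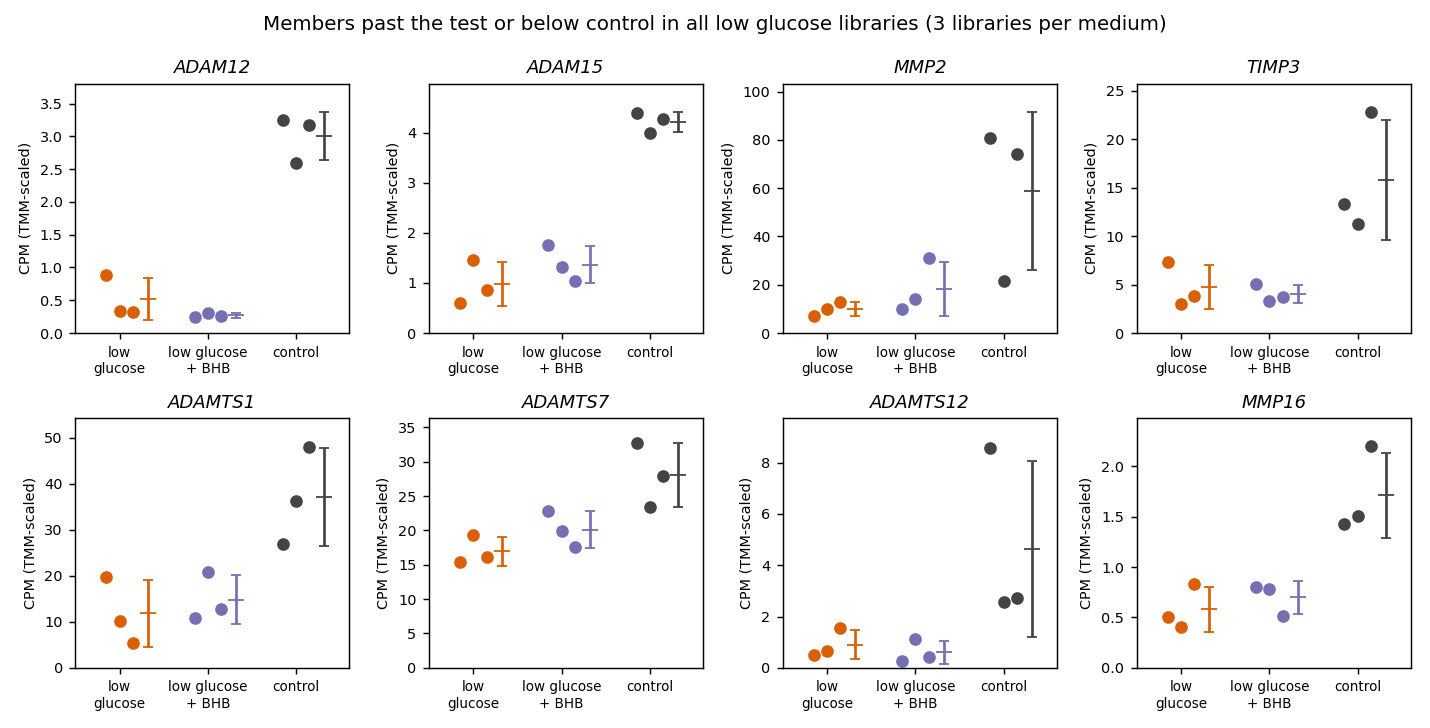
Levels in CPM of ADAM12, ADAM15, MMP2, TIMP3, ADAMTS1, ADAMTS7, ADAMTS12 and MMP16 in each library (points), with the mean and SD of the 3 libraries of each medium beside them; axes start at 0. Tested members are shown that were called or had every library of the low glucose media below every control library. MMP2 was called but did not meet the latter rule, since its highest library with BHB (31.0 CPM) exceeded control replicate 2 (21.4 CPM).

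MMP2, the gene of gelatinase A, which cuts denatured collagen and the type IV collagen of basement membranes, was called in low glucose. Its levels were 7.09, 10.1 and 12.8 CPM in low glucose, 9.79, 14.1 and 31.0 CPM with BHB, and 80.9, 21.4 and 74.2 CPM in control. Low glucose libraries did not overlap control, whereas replicate 3 with BHB lay above control replicate 2. The fold change was -2.56 on the log2 scale in low glucose, or 5.88-fold lower (SE 0.497, edgeR adjusted p = 0.0180), and -1.69 with BHB (SE 0.481, edgeR adjusted p = 0.176). MMP2 kept its call in 4 of 9 fits that left out a library and lost it without control replicate 1 or 3 or any low glucose library, and limma-voom did not call it. The other gelatinase gene, MMP9, had 0.366, 1.29 and 0.662 CPM in low glucose, 0.541, 0.283 and 0.491 CPM with BHB, and 4.13, 0.348 and 0.565 CPM in control. Control replicate 1 alone was high, and the remaining libraries of all media overlapped. MMP9 was not called.

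TIMP3, the inhibitor that binds to the matrix and blocks ADAM17 and several ADAMTS enzymes besides MMPs, was called in both low glucose media. It had 7.30, 3.04 and 3.83 CPM in low glucose, 5.04, 3.33 and 3.75 CPM with BHB, and 13.4, 11.2 and 22.8 CPM in control. Neither low glucose medium overlapped control, and control replicate 3 was the highest library. TIMP3 was 3.34-fold lower in low glucose (log2 fold change -1.74, SE 0.356, edgeR adjusted p = 0.0235) and 3.91-fold lower with BHB (-1.97, SE 0.359, edgeR adjusted p = 0.0184). Both calls were lost without control replicate 3. The call in low glucose was also lost without control replicate 1 or low glucose replicate 2 or 3, and the call with BHB without replicate 2 or 3 of that medium.

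The other inhibitors did not pass. TIMP2, which blocks MMPs and also joins MMP14 in the complex that activates the MMP2 precursor, had 112, 85.3 and 115 CPM in low glucose, 148, 90.5 and 104 CPM with BHB, and 153, 135 and 132 CPM in control. The low glucose libraries lay below control, while replicate 1 with BHB lay among the control libraries. TIMP2 stood at -0.43 in low glucose (95% interval -0.82 to -0.04, edgeR adjusted p = 0.550) and -0.29 with BHB (-0.68 to 0.10). TIMP4 had few counts, 41 over the low glucose libraries, 32 over those with BHB and 98 over the control libraries, and stood at -1.29 (95% interval -3.19 to 0.61) and -1.51 (-3.43 to 0.40) against control. TIMP1 is not analysed here.

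The summed level of fibroblast and stromal cell markers was also lower in every library of the low glucose media than in any control library. All 15 such markers were in the table and none was at 0 in all libraries. Of them 14 had counts in every library and 14 were tested. In low glucose 4 of the 14 were called lower, beside 2.02% of all tested genes, and with BHB 5, beside 1.38%. The median log2 fold change of the 14 was -1.58 in low glucose and -1.50 with BHB. In each medium 8 had an unadjusted p under 0.05 in either direction. Beside them, 6.33% of all tested genes were lower and 0.996% higher at that level in low glucose, and 5.5% and 1.82% with BHB. Summed, the stromal markers ran from 204 to 394 CPM in low glucose, from 219 to 425 CPM with BHB, and from 575 to 1218 CPM in control, with control replicate 1 the highest. COL1A1 in that sum was not called and overlapped, at 106, 62.9 and 157 CPM in low glucose, 148, 89.9 and 47.6 CPM with BHB, and 323, 106 and 101 CPM in control. The 18 markers of cumulus and granulosa cells, 17 of them with counts in every library and none at 0 in all libraries, summed to 523 to 1219 CPM in low glucose, 584 to 1139 CPM with BHB and 569 to 772 CPM in control, so the groups overlapped. By gene, their median log2 fold change was -0.39 in low glucose and -0.71 with BHB. At an unadjusted p under 0.05, in either direction, stood 6 of 18 in low glucose and 7 with BHB, beside the same shares. NR5A1 and NR5A2, 2 of 18, were called lower in each low glucose medium, beside 2.02% and 1.38% of all tested genes. Among hypoblast markers, GATA4 and BMP2, 2 of 7 tested, were called lower in both low glucose media, beside 2.02% and 1.38% of all tested genes. The summed level of that list overlapped, at 814 to 1042 CPM in low glucose, 896 to 1017 CPM with BHB and 754 to 978 CPM in control. No marker of trophectoderm (9 tested), epiblast (5), leukocytes (5) or endothelium (4) was called by edgeR, DESeq2 or limma-voom. By edgeR 2.02% of all tested genes were called lower in low glucose and 1.38% with BHB, and 0.00607% higher in each. By edgeR 1 trophectoderm marker in low glucose and 1 endothelial marker with BHB had an unadjusted p under 0.05, beside the shares given above. The part of any of these cell types in the falls was not tested.

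**Figure D2:**
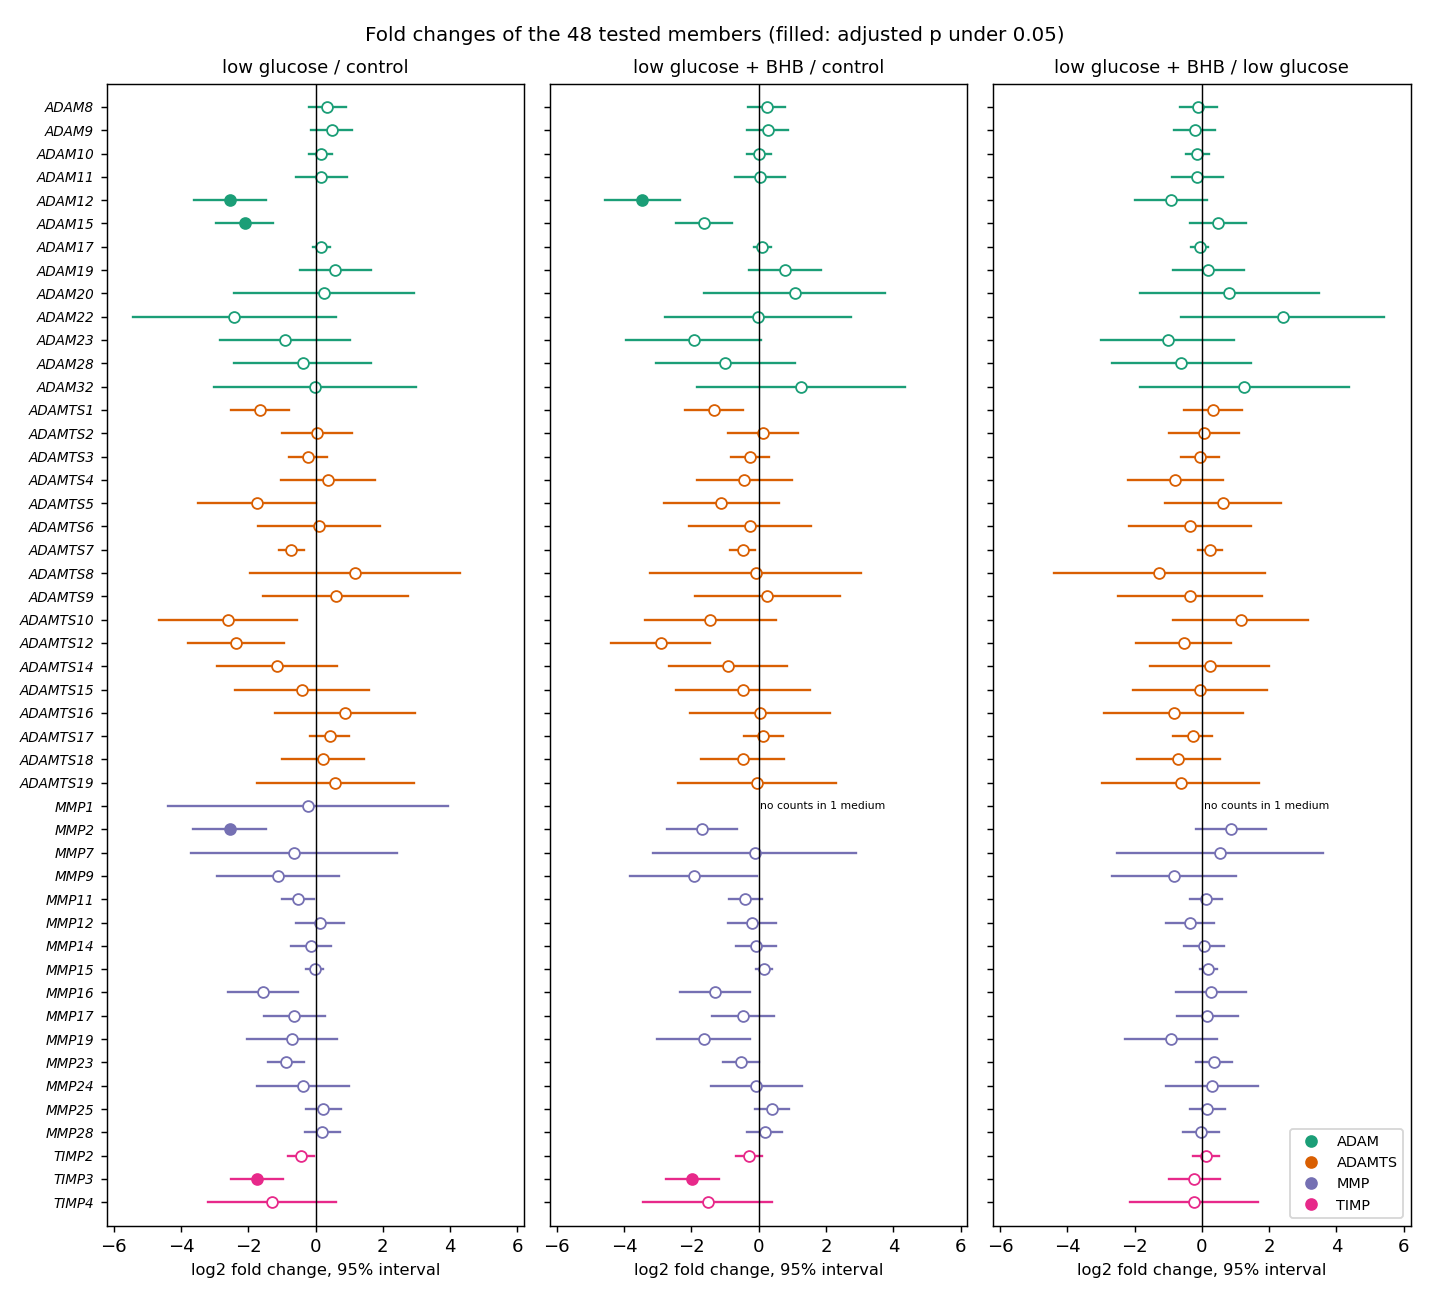
Fitted log2 fold changes (points) and 95% intervals (lines) of the 48 tested members, coloured by family, for low glucose over control, low glucose with BHB over control, and low glucose with BHB over low glucose; filled points are called. Filled points are ADAM12, ADAM15, MMP2 and TIMP3 on the left and ADAM12 and TIMP3 in the middle, with none on the right; MMP1 has no fold where a medium had no counts.

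Of the 17 tested ADAMTS genes none was called in any comparison by edgeR with the filter used here. At an unadjusted p under 0.05, 4 of 17 were lower in low glucose, beside 6.33% of all tested genes, and 3 of 17 with BHB, beside 5.5%. Without the filter edgeR called ADAMTS1 and ADAMTS7 lower in low glucose and ADAMTS12 with BHB, and with a mean count of at least 50 it called ADAMTS7 in low glucose. DESeq2 called ADAMTS1, ADAMTS7 and ADAMTS12 lower in low glucose and ADAMTS12 with BHB, and limma-voom called ADAMTS1 in low glucose. ADAMTS1, which cuts versican and aggrecan and is induced in granulosa cells at ovulation in mice, had 19.8, 10.2 and 5.43 CPM in low glucose, 10.8, 20.9 and 12.8 CPM with BHB, and 26.9, 36.3 and 48.02 CPM in control. Both low glucose media lay below control without overlap, with wide spread inside each medium. ADAMTS1 stood at -1.65 in low glucose (SE 0.401, edgeR adjusted p = 0.0632) and -1.32 with BHB (SE 0.397, edgeR adjusted p = 0.219). ADAMTS5, its neighbour in the RefSeq gene order of ARS-UCD2.0 and also an aggrecanase gene, stood at -1.74 (95% interval -3.49 to 0.01) and -1.11 (-2.82 to 0.60) from 69, 114 and 245 counts over the low glucose, BHB and control libraries.

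ADAMTS7 and ADAMTS12 encode the pair of enzymes that cut cartilage oligomeric matrix protein. ADAMTS7 was measured at 15.4, 19.4 and 16.1 CPM in low glucose, 22.9, 19.9 and 17.5 CPM with BHB, and 32.7, 23.4 and 27.9 CPM in control. The shift was small, at -0.72 in low glucose (SE 0.171, edgeR adjusted p = 0.0559) and -0.48 with BHB (SE 0.170, edgeR adjusted p = 0.396). ADAMTS12 had 0.489, 0.647 and 1.54 CPM in low glucose, 0.279, 1.12 and 0.418 CPM with BHB, and 8.59, 2.58 and 2.72 CPM in control. Control replicate 1 held over 3 times the level of the other controls, and even the lowest control library lay above both low glucose media. ADAMTS12 stood at -2.37 (SE 0.657, edgeR adjusted p = 0.120) and -2.92 (SE 0.674, edgeR adjusted p = 0.0620).

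The remaining ADAMTS genes showed no common direction against control. Among the procollagen N-proteinases, ADAMTS3 had 3.42, 3.01 and 3.32 CPM in low glucose, 2.59, 3.01 and 3.84 CPM with BHB, and 3.75, 4.29 and 3.30 CPM in control, and stood at -0.22 (95% interval -0.79 to 0.35) and -0.27 (-0.84 to 0.31). ADAMTS2 stood at 0.05 and 0.12, and ADAMTS14 at -1.15 and -0.91. ADAMTS17, mutated in a human syndrome of short stature and small lenses as ADAMTS10 is, had 4.31, 5.49 and 6.45 CPM in low glucose, 4.56, 4.10 and 4.76 CPM with BHB, and 2.91, 4.73 and 4.53 CPM in control. The media overlapped, and ADAMTS17 stood at 0.42 (95% interval -0.16 to 0.99) and 0.14 (-0.43 to 0.71), while ADAMTS10 stood at -2.59 and -1.44 from 30 counts over the low glucose libraries, 67 with BHB and 184 in control. ADAMTS13, which cuts von Willebrand factor, had too few counts for the test, with none in low glucose, none with BHB, and 16, 2 and 5 counts in the control libraries. With a floor of 3 counts over a group in place of none, it came out 7.55-fold lower in low glucose and 7.34-fold lower with BHB. Both values are bounds set by that floor and not measured folds. These folds take the 23 control counts as exact, and control replicate 1 held 16 of them. ADAMTS20 had 3 counts, all in replicate 3 with BHB. The other 8 genes, ADAMTS4, ADAMTS6, ADAMTS8, ADAMTS9, ADAMTS15, ADAMTS16, ADAMTS18 and ADAMTS19, had 141 to 752 counts each over all libraries and stood between -0.39 and 1.18 in low glucose and between -0.47 and 0.25 with BHB.

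Summed over the 19 ADAMTS genes, levels were 49.8, 46.0 and 43.3 CPM in low glucose, 47.2, 56.1 and 45.4 CPM with BHB, and 81.1, 81.1 and 97.5 CPM in control. ADAMTS1 and ADAMTS7, with 12693 and 12673 counts over all libraries, carried most of that sum, and the next gene, ADAMTS17, had 2713. The 18 ADAM genes summed to 511, 467 and 309 CPM in low glucose, 331, 520 and 340 CPM with BHB, and 388, 343 and 340 CPM in control, and the groups overlapped.

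The sheddases ADAM10 and ADAM17 stood near their control level. ADAM10, which cuts Notch receptors and cadherins, had 233, 198 and 155 CPM in low glucose, 150, 211 and 173 CPM with BHB, and 182, 178 and 168 CPM in control. It stood at 0.15 in low glucose (95% interval -0.20 to 0.50) and 0.01 with BHB (-0.33 to 0.36). ADAM17, which releases tumour necrosis factor and epidermal growth factor receptor ligands, had 40.7, 45.1 and 42.6 CPM in low glucose, 38.6, 44.5 and 39.9 CPM with BHB, and 39.3, 38.2 and 36.3 CPM in control. The 3 low glucose libraries lay above the 3 control libraries, with a fitted difference of 0.17 on the log2 scale (95% interval -0.08 to 0.43), and with BHB the difference was 0.11 (-0.14 to 0.36). These intervals leave room for small changes in either direction and exclude 2-fold ones.

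ADAM9 and ADAM19 varied widely between pools of 1 medium and overlapped between media. ADAM9, a widely expressed membrane protease, had 175, 149 and 77.7 CPM in low glucose, 100, 160 and 86.3 CPM with BHB, and 114, 86.7 and 86.8 CPM in control. ADAM19, named meltrin beta and able to cut neuregulin, had 48.03, 60.5 and 18.0 CPM in low glucose, 24.3, 91.8 and 28.3 CPM with BHB, and 33.6, 21.2 and 29.3 CPM in control. Replicates 1 and 2 of low glucose and replicate 2 with BHB were high for both genes, and the rest overlapped. ADAM9 stood at 0.48 (95% interval -0.13 to 1.09) and 0.27 (-0.34 to 0.88), and ADAM19 at 0.59 (-0.47 to 1.65) and 0.78 (-0.28 to 1.85). Without replicate 2 of the BHB medium, the difference of ADAM19 from control was -0.09.

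Of the remaining ADAM genes, ADAM8 stood at 0.35 and 0.24, with its 3 low glucose libraries (9.71, 8.77 and 12.1 CPM) above the 3 control libraries (7.56, 8.08 and 8.37 CPM). The ADAM genes without a working zinc site did not pass. ADAM11, ADAM22 and ADAM23, whose products are known as receptors in the nervous system, stood at 0.17, -2.42 and -0.92 in low glucose and 0.04, -0.02 and -1.93 with BHB, with 1128, 111 and 310 counts over all libraries. Sperm and epididymal members were at or near 0: ADAM2 and ADAM21 had no counts in any library, ADAM18 had 4, ADAM7 had 27, ADAM32 had 99 and ADAM20 had 119. ADAM20, ADAM28 and ADAM32 were tested and stood at 0.25, -0.38 and -0.00232 in low glucose and 1.07, -0.995 and 1.26 with BHB. ADAM28 had 134 counts, and ADAM33, not tested, had 10 counts in low glucose, 9 with BHB and 50 in control.

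**Figure D3:**
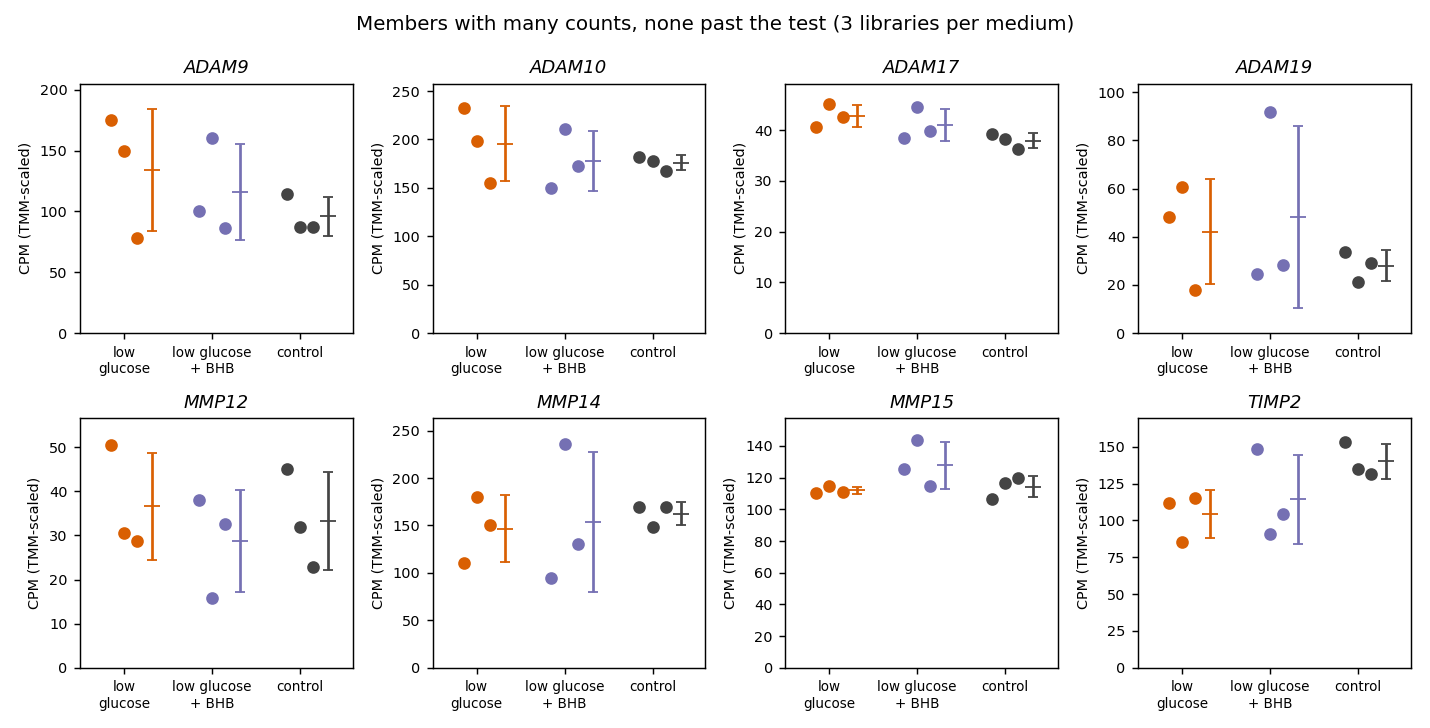
Levels in CPM of ADAM9, ADAM10, ADAM17, ADAM19, MMP12, MMP14, MMP15 and TIMP2 in each library (points), with the mean and SD of the 3 libraries of each medium; axes start at 0. None was called, and replicate 2 with BHB is the highest library of its medium for ADAM9, ADAM10, ADAM17, ADAM19, MMP14 and MMP15.

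MMP14 and MMP15, the membrane-type MMPs with most counts, stood near control. MMP14, the collagenase anchored in the membrane that activates the MMP2 precursor, had 110, 180 and 150 CPM in low glucose, 94.3, 236 and 131 CPM with BHB, and 170, 148 and 169 CPM in control. The control libraries fell inside the range of both low glucose media, and MMP14 stood at -0.15 (95% interval -0.74 to 0.45) and -0.08 (-0.67 to 0.51). MMP15, a related transmembrane enzyme, had 110, 115 and 111 CPM in low glucose, 125, 144 and 115 CPM with BHB, and 107, 117 and 120 CPM in control. It stood at -0.03 (95% interval -0.28 to 0.22) and 0.16 (-0.08 to 0.41). MMP16 had 0.504, 0.408 and 0.831 CPM in low glucose, 0.804, 0.783 and 0.509 CPM with BHB, and 1.43, 1.51 and 2.20 CPM in control. All 6 libraries of the low glucose media lay below the controls, and MMP16 stood at -1.56 (SE 0.481, edgeR adjusted p = 0.196) and -1.29 (SE 0.476, edgeR adjusted p = 0.438). MMP24 stood at -0.38 and -0.07, and the members anchored by a lipid tail, MMP17 and MMP25, at -0.63 and 0.23 in low glucose and -0.47 and 0.40 with BHB.

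Among the remaining MMPs, MMP12, the elastase known from macrophages, had 50.6, 30.5 and 28.7 CPM in low glucose, 37.9, 15.7 and 32.7 CPM with BHB, and 45.1, 31.9 and 22.9 CPM in control. The media overlapped, at 0.14 (95% interval -0.58 to 0.85) and -0.21 (-0.93 to 0.50). In the RefSeq gene order MMP13, MMP12, MMP3 and MMP1 follow each other, as do MMP8, MMP27, MMP20 and MMP7. Of these 8 neighbours MMP12 had 18961 counts over all libraries, and the others had between 0 (MMP27) and 114 (MMP7). MMP1, an interstitial collagenase gene, had 34 counts in low glucose, none with BHB and 39 in control. The control counts were all in replicate 3. Its counts were estimates that were not whole numbers, as were those of MMP28, ADAMTS9 and ADAMTS16. MMP11, which is activated by furin inside the cell, had 5.25, 6.28 and 5.68 CPM in low glucose, 5.56, 7.48 and 5.67 CPM with BHB, and 8.60, 6.57 and 9.54 CPM in control, and stood at -0.52 and -0.40. MMP23 stood at -0.89 (SE 0.248, edgeR adjusted p = 0.126) and -0.52 (SE 0.246), MMP7 at -0.65 and -0.12, MMP19 at -0.70 and -1.63, and MMP28 at 0.20 and 0.18.

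**Figure D4:**
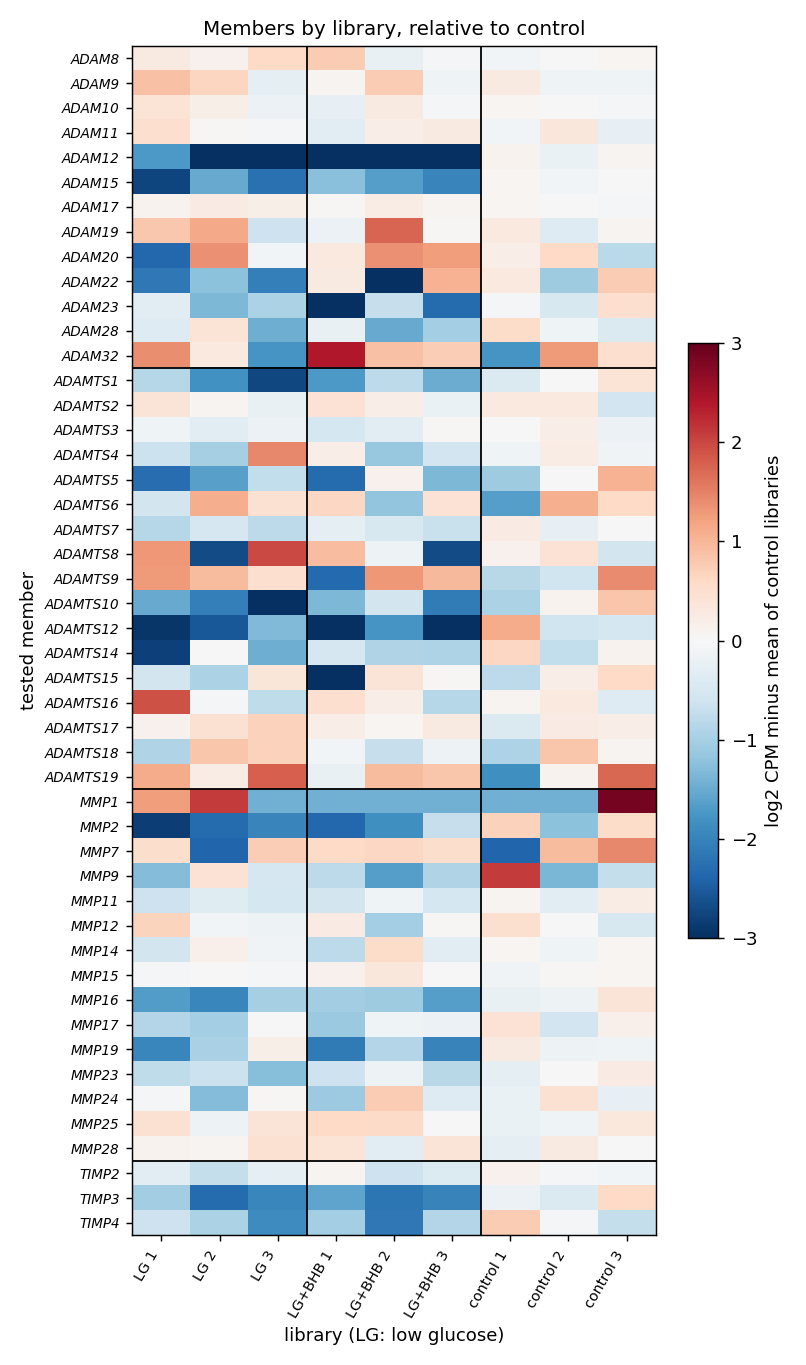
Log2 CPM of each tested member in each library minus its mean over the 3 control libraries; columns are low glucose (LG), low glucose with BHB and control, rows are grouped by family, and colours are limited at 3 log2 units either way. ADAM12, ADAM15, ADAMTS12, MMP2 and TIMP3 are among the members that are blue in all 6 libraries of the low glucose media, while ADAM10, ADAM17 and MMP15 stay pale throughout.

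In low glucose 29 of 48 tested members had a fitted fold change below 0, beside 46.8% of all tested genes, and with BHB 33, beside 48.5%. The median log2 fold change of these members was -0.30 in low glucose, where the median of all tested genes was 0.02, and -0.28 with BHB, where it was 0.01. Setting MMP1, which had no counts with BHB, at a floor of 3 counts over that group left the second median at -0.28. In low glucose 12 of 48 members, or 25.0%, were lower at an unadjusted p under 0.05, beside 6.33% of all tested genes, and none was higher, beside 0.996%. With BHB 11 of 48 members were lower at that level, beside 5.5%, and none was higher, beside 1.82%. In low glucose 13 tested members, or 27.1%, had all 3 libraries below all 3 controls, beside 8.85% of all tested genes, and 2, ADAM8 and ADAM17, had all 3 above, beside 4.31%. With BHB 10 tested members, or 20.8%, lay below without overlap, beside 8.56%, and none above, beside 4.77%. Taking the 6 libraries of the low glucose media together, 7 tested members lay below all controls, namely ADAM12, ADAM15, ADAMTS1, ADAMTS7, ADAMTS12, MMP16 and TIMP3, or 14.6% beside 5.56%, and none above, beside 1.03%. All of these shares describe families chosen with earlier results of these data known, and they are not independent support.

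Adding BHB to the low glucose medium gave no called difference in these families. By edgeR 0 of 48 members passed, and 0 had an unadjusted p under 0.05, beside 0.589% of all tested genes lower and 1.05% higher at that level. DESeq2 and limma-voom called 0 members as well. The median log2 fold change of BHB over low glucose was -0.06, with 26 of 48 below 0 beside 48.8% of all tested genes, and the 95% intervals reached a median of 1.06 log2 units to either side, so 2-fold differences of many members could not be seen. ADAM12 was the only member with all 3 BHB libraries below all 3 low glucose libraries, beside 2.54% of all tested genes, and MMP15 the only one with all 3 above, at 0.19 (95% interval -0.05 to 0.44), beside 2.96%. MMP2 differed by 0.87 (95% interval -0.17 to 1.91), TIMP3 by -0.23 (-0.99 to 0.54) and ADAM17 by -0.06 (-0.31 to 0.19). These values are from fits without pairing by replicate number. With the replicate number as a block no call changed, and ADAM12 differed by -0.81 (SE 0.505) and MMP2 by 0.76 (SE 0.389).

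On a separate list of regulators of these enzymes, which leaves out the TIMP genes, no gene was called. The 18 tested regulators included RECK, a membrane-bound MMP inhibitor gene, the MMP inducer BSG and the activating protease FURIN. Partners of ADAM17 and ADAM10, the iRhoms and tetraspanins, were also among them. In either low glucose medium 0 were called by edgeR, DESeq2 or limma-voom. By edgeR 2.02% of all tested genes were called lower in low glucose and 1.38% with BHB, so 0 of 18 was near that share. At an unadjusted edgeR p under 0.05 stood 2 in each. These were RHBDF1 (higher) and TSPAN17 (lower) in low glucose, and RHBDF1 and TSPAN33 (both higher) with BHB. At that level 6.33% of all tested genes were lower and 0.996% higher in low glucose, and 5.5% and 1.82% with BHB. The median log2 fold change of the 18 regulators was 0.14 in low glucose and 0.11 with BHB. RECK averaged 3.38 ± 1.20 CPM in low glucose, 2.79 ± 0.793 CPM with BHB and 4.35 ± 1.99 CPM in control (SD, n = 3 each). It stood at -0.36 (SE 0.383) and -0.64 (SE 0.385), and FURIN at 0.14 (SE 0.175) and 0.12 (SE 0.175). Of 6 tested relatives without a protease domain, ADAMTS-like genes, THSD4 and PAPLN, none was called by any of these tools. At an unadjusted p under 0.05 there were 0 of the 6, beside the same shares of all tested genes. Their medians were 0.03 and 0.33.

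Several substrates of these enzymes were called lower in the same comparisons. Of 20 tested matrix substrates and partners, 6 were called lower in low glucose, beside 2.02% of all tested genes, and 7 with BHB, beside 1.38%. Their median was -0.66 in both, and none was called higher. Genes of this list that were not called went both ways. FN1, FBN2, COL4A1 and COL4A2 had positive fitted fold changes in both comparisons, and COL1A1 and SPARC negative ones. VCAN, the proteoglycan versican cut by ADAMTS1, averaged 12.8 ± 11.1 CPM in low glucose, 7.71 ± 2.29 CPM with BHB and 74.9 ± 1.52 CPM in control (SD, n = 3 each). FBN1, the microfibril protein fibrillin, averaged 8.16 ± 0.825 CPM in low glucose, 7.38 ± 0.903 CPM with BHB and 37.9 ± 19.6 CPM in control (SD, n = 3 each), and changed by -2.22 (SE 0.295) in low glucose and -2.36 (SE 0.297) with BHB. THBS2, a thrombospondin that clears MMP2 from the cell surroundings, changed by -2.62 (SE 0.382) and -2.93 (SE 0.387), and LUM, the proteoglycan lumican, by -3.28 (SE 0.442) and -3.50 (SE 0.447). LUM and DCN, called in both media, and COL3A1, called with BHB, are also on the list of stromal markers.

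Of 22 tested rows for proteins shed by ADAM enzymes, 4 were called lower in each low glucose medium, NOTCH2, CDH2, APP and CD44, beside 2.02% of all tested genes in low glucose and 1.38% with BHB, and none higher, with medians of 0.03 and 0.00318. NOTCH2, a receptor cut by ADAM10, averaged 13.4 ± 1.71 CPM in low glucose, 14.1 ± 3.03 CPM with BHB and 27.8 ± 0.765 CPM in control (SD, n = 3 each). CDH2, the gene of N-cadherin, changed by -2.26 (SE 0.325) and -2.07 (SE 0.323), APP by -1.14 (SE 0.236) and -1.15 (SE 0.237), and CD44, which encodes a receptor for hyaluronan, by -2.22 (SE 0.326) and -2.37 (SE 0.329). Of 12 transcription factor genes of the AP-1, ETS and RUNX families and TWIST1, 3 were called lower in low glucose, FOSL2, RUNX1 and RUNX2, beside 2.02% of all tested genes, and 1 with BHB, RUNX2, beside 1.38%. RUNX2, which drives MMP13 in bone and cartilage, averaged 0.424 ± 0.0438 CPM in low glucose, 0.914 ± 0.470 CPM with BHB and 6.30 ± 2.44 CPM in control (SD, n = 3 each).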

How the data were processed

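Per the labels' protocols, polyadenylated RNA of pooled blastocysts was sequenced. The authors deposited a table of estimated counts per gene, and the submitters' processing notes name fastp, kallisto, DESeq2 and build bosTau9, without versions, annotation or roles. Of its values, 18.1% differ from a whole number by more than 0.01. Similar copies can share reads. Columns were matched to samples by label. Counts were rounded, filtered with filterByExpr (minimum count 10, minimum total 15; 16469 of 22127 genes kept), scaled by TMM and fitted with edgeR 4.0.16 in R 4.3.3, with 3 group means over 9 libraries, two-sided, with Benjamini-Hochberg adjustment over all tested genes at 0.05. The steps were tested on simulated data. The members and gene lists were chosen with earlier results of these data known, in which several list genes (LUM, DCN, VCAN and CD44 among them) already appeared, so their counts are not independent support. Members named in full are those called, the TIMP genes and the 4 per family with most counts; ADAM8, ADAMTS12, MMP9, MMP11, MMP16, RECK and FURIN and other members were added after their values were seen. Called list genes given values were ones of small p, but VCAN was given ahead of DCN, whose p was smaller in both comparisons with control. THBS1 was called in both low glucose media and is not described. Regulators and substrates named without a call were added after their values were seen. All replicate pairs differed by more than sampling noise (smallest chi-square per degree of freedom 38.9).

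Whether equal replicate numbers mark pairs was checked from the correlation of deviations from group means. Between the low glucose media the correlations were 0.115, 0.243 and 0.102, all over 0.1. The numbers were treated as possible pairs of those samples, on the data alone since no label says so. Against control they were 0.0416 to 0.144, with replicate 1 over 0.1 in both comparisons and replicates 2 and 3 under it. The main fit used no pairing in any comparison, and the replicate block was an alternative. Alternatives were RLE factors, no filter, a mean count of at least 50, a replicate block, a fit of just the 6 libraries of a comparison, limma-voom (limma 3.58.1), DESeq2 1.42.0 and leaving out each library. RefSeq symbols of ARS-UCD2.0 gave gene order alone, since the build differs; all 60 members matched. Figures were drawn with matplotlib 3.10.9.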

Additional observations from a re-analysis of the deposited data

How the results depend on the processing

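RLE factors and the replicate block left the called members as they were against control, 4 in low glucose and 2 with BHB, and 0 were called between the low glucose media in any fit. DESeq2 called 8 members in low glucose, adding ADAMTS1, ADAMTS7, ADAMTS12 and MMP23, and 4 with BHB, adding ADAM15 and ADAMTS12; over all genes it called 557 and 420, against 334 and 228 by edgeR, and 2 between the low glucose media. Limma-voom called 4 members in low glucose, with ADAMTS1 in place of MMP2, and 3 with BHB, adding ADAM15. No filter gave 6 and 3, adding ADAMTS1 and ADAMTS7 in low glucose and ADAMTS12 with BHB, a mean count of at least 50 gave 5 and 2, adding ADAMTS7, and fits of 6 libraries gave 4 and 3, adding ADAM15 with BHB. The causes were not tested. Leaving out 1 library gave 0 to 5 called members in low glucose, with 0 without control replicate 3 or low glucose replicate 3 and 1 without control replicate 1 or low glucose replicate 2, and 1 to 3 with BHB, with 1 without control replicate 3 or BHB replicate 3. Over all genes such fits called 196 to 391 in low glucose, 91 to 257 with BHB and 0 between the media. The median of the tested members ran from -0.37 to -0.17 in low glucose, -0.46 to -0.28 with BHB and -0.11 to 0.00943 between the low glucose media. Changes of sign were checked only for the called members, the TIMP genes and the 4 per family with most counts. Among these, some without a call in a comparison changed sign there when a library was left out. In low glucose they were MMP12 (-0.15 to 0.42), MMP14 (-0.31 to 0.043) and MMP15 (-0.076 to 0.023). With BHB against control they were ADAM9 (-0.038 to 0.44), ADAM10 (-0.13 to 0.12), ADAM19 (-0.090 to 1.10), ADAMTS17 (-0.049 to 0.27), MMP12 (-0.46 to 0.085) and MMP14 (-0.53 to 0.18). Between the low glucose media they were ADAM9 (-0.52 to 0.020), ADAM10 (-0.28 to 0.00117), ADAM19 (-0.68 to 0.55), ADAMTS1 (-0.018 to 0.91), ADAMTS3 (-0.21 to 0.073), MMP14 (-0.38 to 0.32, and -0.0041 by limma-voom), TIMP2 (-0.10 to 0.28), TIMP3 (-0.46 to 0.23) and TIMP4 (-0.55 to 0.12). The number of pools, 3 a medium, limits all of these comparisons, and members with few counts have the widest intervals.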
